A study of Mus musculus with 8 samples.

Results

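Guanylin signalling and chloride secretion were followed through 10 genes in freshly isolated crypts of the mouse small intestine (SI) and colon (COL). The genes encode 2 peptide ligands (Guca2a, Guca2b), their receptor (Gucy2c), a kinase downstream of it (Prkg2), and 6 ion transport genes (Cftr, Slc26a3, Slc26a6, Slc12a2, Best2, Clca4a). They were listed by symbol and found by their Ensembl identifiers, and all 10 were among the 45706 genes counted. RNA-Seq was performed on crypts of 4 wild-type C57BL/6N mice, 2 females and 2 males, with an SI and a COL library from every mouse. The study describes crypt isolation for organoid culture, where SI villi were removed by scraping and COL tissue spent longer in stronger EDTA. No treatment, transgene or age is given for these animals. Mice 1 and 4 were female and mice 2 and 3 male, and the labels number the last of them 5. The comparison of SI with COL asks how the oncogene-naive epithelia of both tissues differ.

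Guanylin and uroguanylin, the peptides made from Guca2a and Guca2b, are released by the epithelium and bind guanylyl cyclase C, the product of Gucy2c, on the apical membrane. The receptor makes cGMP, and this activates the membrane-bound cGMP-dependent kinase PRKG2, which phosphorylates the chloride channel CFTR and restrains sodium uptake. Chloride enters the cell across the basolateral membrane through the cotransporter NKCC1, the product of Slc12a2, and leaves through apical channels. Salt and water then move into the lumen. SLC26A3 and SLC26A6 exchange chloride for bicarbonate at the apical membrane. Bacterial heat-stable enterotoxins act on the same receptor and cause secretory diarrhoea.

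The libraries held 15969428 to 32908060 counts. Markers of small intestinal enterocytes were higher in SI for 6 of 6 genes and markers of colonocytes higher in COL for 5 of 5, so both tissue labels matched their markers. The mitochondrial share of counts was high (22.7% to 50.8%) in SI2, SI3, COL1 and COL2 and low (4.83% to 7.35%) in SI1, SI4, COL3 and COL4. In SI the libraries of high share were those of the males and the libraries of low share those of the females, so that sex and mitochondrial share cannot be told apart there. SI1 stood apart by its low summed CPM (counts scaled to a common total with edgeR's TMM factors) of 5 proliferation markers (69.0 against 232 to 420 in SI2 to SI4), of 5 stem cell markers (30.7 against 217 to 310) and of 6 Paneth cell markers (596 against 1847 to 4526). The summed CPM of 6 small intestinal enterocyte markers was highest in SI1 (107200) and SI4 (77890), against 50380 in SI2 and 45580 in SI3. Apoa1 alone made up 64610 CPM of the sum in SI1. Not every one of these markers had this order: Sis was lowest in SI1 (2049 CPM) and highest in SI3 (3374 CPM). Alpi and Fabp1 were higher in SI3 (843 and 7750 CPM) than in SI4 (345 and 6896 CPM). Of the general epithelial markers, Vil1 (mean 3552 CPM in SI against 373 CPM in COL) and Krt20 (7752 against 928 CPM) were higher in every SI library than in every COL library. Epcam, Cdh1 and Krt8 overlapped between the tissues. In such bulk samples, fewer cells of a type and less RNA per cell cannot be told apart.

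Of the 10 genes, 8 differed between SI and COL crypts in edgeR's quasi-likelihood test (Benjamini-Hochberg adjusted p below 0.05), where 28.4% of all 14491 genes tested did. Guca2b, Gucy2c, Prkg2, Slc26a6 and Clca4a were higher in SI, a direction taken by 15.5% of all genes tested. Guca2a, Slc12a2 and Best2 were higher in COL, as were 12.9% of all genes tested. Cftr and Slc26a3 did not pass the test. For the same 8 genes the SI and COL libraries did not overlap, against 33.5% of all genes tested. The median log2 fold change of the 10 genes was 0.34, and that of all genes tested was -0.09. Positive values stand for higher expression in SI throughout. With scaling by library size alone, which moved the median of all genes to -0.82, 9 of the 10 passed the test, against 40.7% of all genes, 4 of them higher in SI (7.69% of all genes) and 5 in COL (33.0%), and Gucy2c was then the gene that did not.

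**Figure D1:**
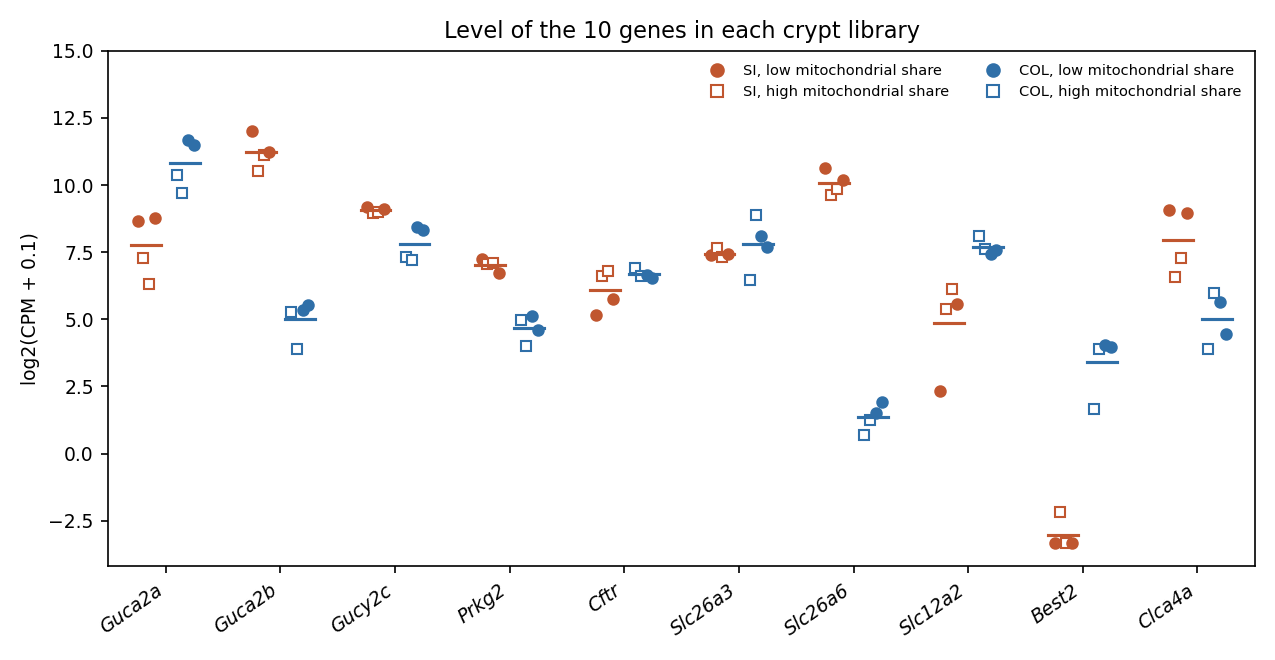
Level of each gene in each library as log2(CPM + 0.1), with SI in orange, COL in blue, filled circles for libraries of low and open squares for libraries of high mitochondrial share, and bars at the mean of the 4 libraries. Guca2b lies above Guca2a in SI and below it in COL, Slc26a6 falls from 798 CPM or more in SI to 3.71 CPM or less in COL, and SI1 is the lowest Slc12a2 point.

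The ligands were expressed in opposite patterns. Guca2a (ENSMUSG00000023247, chr4:119637704-119639471, plus strand, mm10) and Guca2b (ENSMUSG00000032978, chr4:119656607-119658954, minus strand) are neighbours whose annotated ends lie 17135 bases apart. The last 15 codons of both coding sequences, shown here because they hold most of the active peptide, were identical at 29 of 45 bases (64.4%). Capitals mark identical bases in these ends, taken from the GENCODE transcripts.
Guca2a: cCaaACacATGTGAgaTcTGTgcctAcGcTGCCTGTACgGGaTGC
Guca2b: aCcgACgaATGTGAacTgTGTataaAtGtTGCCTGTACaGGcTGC
No stretch of 50 bases of either transcript occurred in a transcript of another gene.

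In SI1 to SI4, Guca2b stood at 4150, 1478, 2233 and 2420 CPM, and in COL1 to COL4 at 38.2, 14.9, 40.2 and 46.5 CPM. Its mean was 2570 ± 1129 CPM across SI and 34.9 ± 13.8 CPM across COL libraries (SD, n = 4 mice), 73.5-fold higher in SI. Every SI library thus lay far above every COL library, with a log2 fold change of 6.20 (SE 0.61, adjusted p = 3.29e-05, edgeR). Guca2a stood at 407, 157, 78.7 and 434 CPM in SI1 to SI4 and at 1342, 833, 3302 and 2845 CPM in COL1 to COL4. Its mean was 269 ± 178 CPM across SI and 2080 ± 1180 CPM across COL libraries (SD, n = 4 mice), 7.72-fold higher in COL. The lowest COL library was COL2 and it still lay above the highest SI library, SI4, with a log2 change of -2.95 (SE 0.67, adjusted p = 0.00653, edgeR). In libraries of low mitochondrial share Guca2a was higher than in those of high share within both tissues, by 1.92 in SI and 1.54 in COL on the log2 scale. Separate fits of the libraries of high and of low share gave log2 fold changes between the tissues of -3.29 and -2.88.

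Because a ratio of 2 genes within a library does not depend on how libraries are scaled, the ligands were also compared directly. SI crypts held 5.57 to 28.4 counts of Guca2b for each count of Guca2a, and COL crypts held 0.0122 to 0.0285. The log2 ratio averaged 3.47 ± 0.98 over SI and -5.81 ± 0.51 over COL libraries (SD, n = 4 mice), a difference of 9.28 that was seen in 4 of 4 mice (exact permutation test, two-sided over 70 assignments, which cannot give less than p = 0.0286; 0.0429 adjusted over the 6 ratios tested).

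The promoters of both ligands are shown because the genes are neighbours of opposite pattern. They are RefSeq sequences of GRCm38.p6, printed up to the base before the GENCODE start, and the table used held 5 of the 10 genes. Capitals mark the GATA core AGATAA on either strand in Guca2a, and the letters of an HNF1 core, GTTAAT, in Guca2b.
Guca2a, chr4:119637482-119637703, plus strand: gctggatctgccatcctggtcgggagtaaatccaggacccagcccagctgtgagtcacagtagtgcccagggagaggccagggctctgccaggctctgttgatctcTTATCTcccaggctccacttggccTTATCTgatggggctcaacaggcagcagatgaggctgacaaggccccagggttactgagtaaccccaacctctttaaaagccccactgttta
Guca2b, chr4:119658955-119659195, minus strand: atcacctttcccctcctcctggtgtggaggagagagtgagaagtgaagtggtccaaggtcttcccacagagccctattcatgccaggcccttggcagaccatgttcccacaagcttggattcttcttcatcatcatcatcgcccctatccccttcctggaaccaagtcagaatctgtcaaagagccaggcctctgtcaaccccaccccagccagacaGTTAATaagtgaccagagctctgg
The matches began 116 and 92 bases before the GENCODE start of Guca2a and 24 bases before that of Guca2b. In the full RefSeq windows, which run past these starts, Guca2a held no HNF1 core and Guca2b no GATA core. The RefSeq windows of Slc26a3 and Slc26a6 lie inside the longer GENCODE genes. That of Slc26a3 held the HNF1 core at 2 positions, both held a CDX core, TTTAT, and Cftr held none of the 3 cores. Over 32851 promoters of 300 bases (250 before to 50 after the start), searched on both strands, 11.2% held the GATA core, 7.10% the HNF1 core and 40.0% the CDX core. A match is an occurrence of these letters and nothing more.

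The receptor gene Gucy2c (ENSMUSG00000042638, chr6:136697284-136781765) was the most even of the 10 genes within SI. It stood at 576, 499, 514 and 557 CPM in SI1 to SI4 and at 160, 146, 345 and 319 CPM in COL1 to COL4. All 4 SI libraries lay above all COL libraries, and COL fell into a pair of lower (COL1, COL2) and a pair of higher values (COL3, COL4), the former with high and the latter with low mitochondrial share. The mean was 537 ± 36.0 CPM across SI and 242 ± 104 CPM across COL libraries (SD, n = 4 mice), a log2 fold change of 1.15 (SE 0.37, adjusted p = 0.0382, edgeR). This call was not stable. Without any 1 of SI1, SI2, SI3, SI4, COL1 or COL2 the adjusted p was 0.0508 to 0.104, and with library size scaling the log2 fold change was 0.37 (adjusted p = 0.487).

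Prkg2 (ENSMUSG00000029334, chr5:98929773-99037351), the kinase that passes the cGMP signal to CFTR, was higher in SI, a call that held under all 19 alternatives run. Its level was 150, 135, 138 and 106 CPM in SI1 to SI4 against 31.6, 16.1, 34.5 and 24.1 CPM in COL1 to COL4. The groups were well apart, with 132 ± 18.5 CPM across SI and 26.6 ± 8.24 CPM across COL libraries (SD, n = 4 mice) and a log2 fold change of 2.31 (SE 0.30, adjusted p = 0.000199, edgeR). Prkg1, the soluble kinase of the same family, had 0 to 17 counts per library and was not tested. Whether Prkg2 changed relative to Gucy2c was not resolved. The log2 ratio of Prkg2 to Gucy2c averaged -2.03 ± 0.24 over SI and -3.14 ± 0.58 over COL libraries (SD, n = 4 mice), higher in SI in 4 of 4 mice, with a difference of 1.11 that did not pass (two-sided exact permutation test, p = 0.0571, adjusted p = 0.0685).

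**Figure D2:**
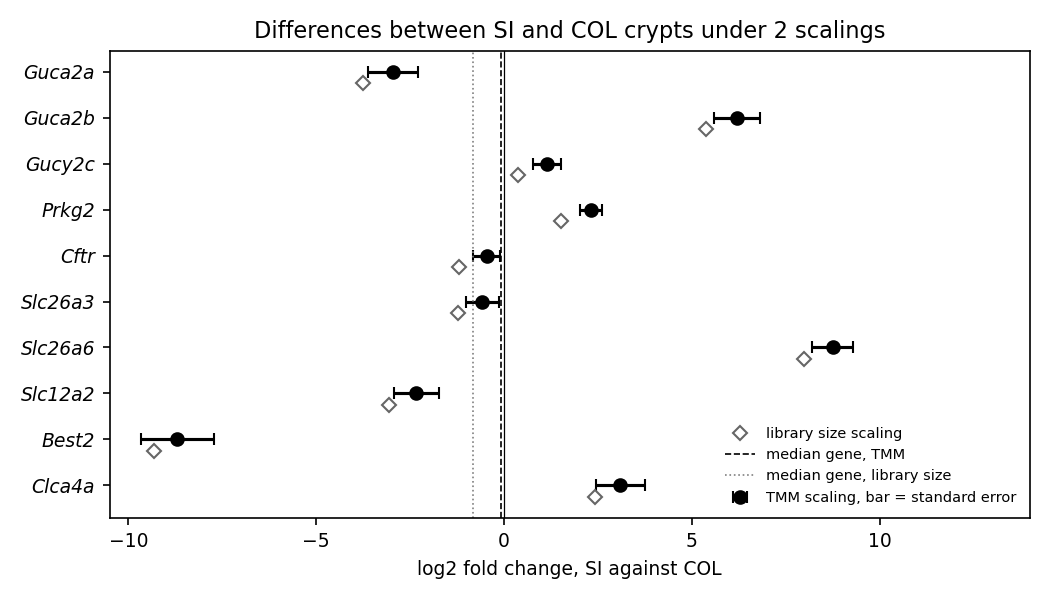
Log2 fold change of SI against COL for each gene, with TMM scaling (filled circles, bars give the standard error) and with scaling by library size alone (open diamonds); vertical lines mark 0 and the median gene under each scaling. Library size scaling moves all 10 genes toward COL, and Gucy2c falls from 1.15 to 0.37.

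The apical anion transport genes followed no common direction. Cftr (ENSMUSG00000041301, chr6:18170687-18322768), the cAMP- and cGMP-regulated chloride channel of the crypt, stood at 36.0, 97.2, 111 and 53.2 CPM in SI1 to SI4 and at 119, 97.0, 99.8 and 92.7 CPM in COL1 to COL4. The COL libraries were close together, while SI1 and SI4 lay below and SI2 and SI3 within the COL range. The mean was 74.3 ± 35.4 CPM across SI and 102 ± 11.7 CPM across COL libraries (SD, n = 4 mice), and the log2 fold change of -0.46 (SE 0.35) did not pass the test (adjusted p = 0.365, edgeR). Among the 4 libraries of low mitochondrial share it was -1.11 (adjusted p = 0.0213), and among the 4 of high share -0.13 (adjusted p = 0.870). The low-share SI libraries were SI1 and SI4, both from females. Without SI1, the library low in proliferation, stem cell and Paneth cell markers, the log2 fold change was -0.21 (adjusted p = 0.704, edgeR). With library size scaling it was -1.20 (adjusted p = 0.0320). The antisense gene Gm15592 covered 129 of the 7765 exon bases of Cftr, and it is not given whether strand was used in counting.

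Slc26a3 (ENSMUSG00000001225, chr12:31390871-31473917), the chloride-bicarbonate exchanger whose loss causes congenital chloride diarrhoea, was even in SI and varied in COL. It stood at 170, 202, 158 and 171 CPM in SI1 to SI4 and at 88.6, 467, 277 and 209 CPM in COL1 to COL4. COL1 lay below every SI library and the other 3 COL libraries above them. The log2 fold change of -0.57 (SE 0.43) did not pass the test (adjusted p = 0.358, edgeR), while with library size scaling it was -1.22 (adjusted p = 0.0319).

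Slc26a6 (ENSMUSG00000023259, chr9:108853283-108913049), an exchanger of chloride for bicarbonate or oxalate, gave the largest fold change toward SI of the 10 genes. It stood at 1578, 798, 926 and 1160 CPM in SI1 to SI4 and at 1.53, 2.30, 2.76 and 3.71 CPM in COL1 to COL4. The COL libraries held 37 to 177 counts, so the gene was detected in every library, but at a level 434-fold lower in COL. The mean was 1116 ± 343 CPM across SI and 2.57 ± 0.91 CPM across COL libraries (SD, n = 4 mice), a log2 fold change of 8.75 (SE 0.54, adjusted p = 5.92e-06, edgeR).

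The exchanger ratio therefore inverted between the tissues. For each Slc26a6 count, SI held 0.108 to 0.252 and COL 56.2 to 200.2 counts of Slc26a3. The log2 ratio averaged -2.63 ± 0.51 over SI and 6.49 ± 0.86 over COL libraries (SD, n = 4 mice), a difference of -9.12 (two-sided exact permutation test, p = 0.0286, adjusted p = 0.0429). The balance of channel and exchanger was not resolved. The log2 ratio of Cftr to Slc26a3 averaged -1.37 ± 0.75 over SI and -1.12 ± 1.13 over COL libraries (SD, n = 4 mice), with overlapping groups (two-sided exact permutation test, p = 0.743).

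Slc12a2 (ENSMUSG00000024597, chr18:57878678-57946821), the basolateral entry route for chloride, was higher in COL. It stood at 4.94, 41.9, 69.1 and 47.8 CPM in SI1 to SI4 and at 271, 195, 172 and 191 CPM in COL1 to COL4. SI1 was the lowest by far, and the highest SI library still lay below every COL library. The mean was 40.9 ± 26.7 CPM across SI and 207 ± 43.8 CPM across COL libraries (SD, n = 4 mice), 5.06-fold higher in COL (log2 fold change -2.34, SE 0.60, adjusted p = 0.0126, edgeR). Without SI1, the library low in proliferation, stem cell and Paneth cell markers, it was -1.95 (adjusted p = 0.00252), and among the 4 libraries of low share -2.78 (adjusted p = 0.0826). The log2 ratio of Slc12a2 to Cftr averaged -1.23 ± 1.17 over SI and 1.00 ± 0.17 over COL libraries (SD, n = 4 mice). COL crypts thus held 1.73 to 2.28 counts of the cotransporter for each count of the channel, and SI crypts 0.138 to 0.898 (two-sided exact permutation test, p = 0.0286, adjusted p = 0.0429).

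**Figure D3:**
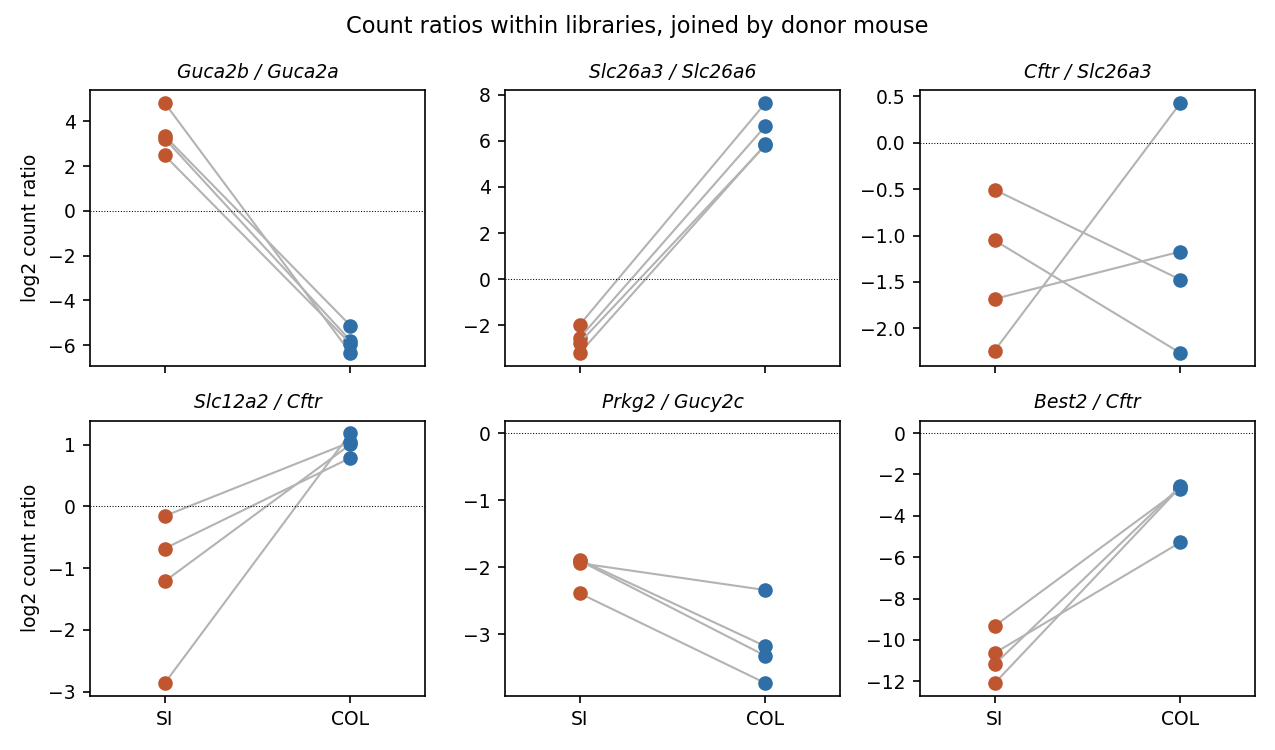
Log2 ratio of counts (each plus 0.5) of 6 gene pairs within each library, with a line joining SI and COL of the same mouse and a dotted line at equal counts. The ratios of ligands and of exchangers cross the line of equal counts in all 4 mice, in opposite directions, while Cftr to Slc26a3 rises in 2 mice and falls in 2.

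Best2 (ENSMUSG00000052819, chr8:85007202-85014531), a bestrophin anion channel linked to bicarbonate secretion by colonic goblet cells, was nearly absent from the SI libraries. These held 0, 2, 0 and 0 counts, and COL1 to COL4 held 104, 240, 612 and 747 counts, or 3.05, 14.9, 16.4 and 15.6 CPM. COL1 was the lowest COL library and the other 3 were close together. The groups did not overlap (adjusted p = 6.58e-05, edgeR). Over the pooled libraries the level was 505-fold higher in COL, with an exact 95% interval of 139 to 4170 that covers counting error only, since it rests on 2 counts against 1703. Without SI2, which held both SI counts, the level was at least 267-fold higher in COL, with 3 counts over the SI group as the floor. Markers of goblet cells were divided. Muc2, Agr2 and Spink4 were higher in COL, while Tff3, Fcgbp and Zg16 did not pass and had log2 fold changes of 0.86, 0.66 and 0.88. The summed level of the 6 was 2582 to 9822 CPM in SI and 11780 to 23350 CPM in COL, where Muc2 alone had a mean of 10670 CPM, and no marker was at 0 in all libraries of a tissue. COL1, the lowest COL library for Best2, had the highest goblet marker sum, of which Muc2 made up 16200 CPM. Single markers were divided there. Among COL libraries, COL1 was highest for Muc2 and Spink4, lowest for Zg16 (506 CPM) and below COL4 for Agr2 (3192 against 4666 CPM). The part of goblet cells in the Best2 result was not tested. The log2 ratio of Best2 to Cftr was higher in COL in 4 of 4 mice (difference of -7.52, two-sided exact permutation test, p = 0.0286, adjusted p = 0.0429).

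Clca4a (ENSMUSG00000068547, chr3:144952480-144975045), a member of the CLCA family of chloride channel regulators, was higher in SI but uneven between mice. It stood at 538, 95.7, 155 and 492 CPM in SI1 to SI4 and at 14.8, 62.2, 50.3 and 22.0 CPM in COL1 to COL4. SI1 and SI4, from the females, were the higher SI libraries, while COL2 and COL3, from the males, were the higher COL libraries. The log2 fold change was 3.10 (SE 0.65, adjusted p = 0.00422, edgeR). Within mice, SI exceeded COL by 5.17 and 4.48 on the log2 scale in the females and by 0.62 and 1.62 in the males. The tissue by sex interaction was -3.65 (male minus female, SE 0.67) with an unadjusted p of 0.000294, and it did not pass in edgeR (adjusted p = 0.909). It passed in DESeq2 (adjusted p = 7.03e-05) and in edgeR without a filter on low counts (adjusted p = 0.0171, where 0.236% of all genes passed). Since sex and mitochondrial share coincided in SI, their parts in the SI values cannot be told apart. In COL they did not coincide, and Clca4a showed no order by share (low minus high, 0.13 on the log2 scale). The part of sex or share in the interaction was not tested separately. Among the 4 libraries of high share the log2 fold change between tissues was 1.66 (adjusted p = 0.125), and among those of low share 3.83 (adjusted p = 0.00393).

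Clca4a is the least certain of the 10 genes in its counts. Of the 50-base stretches of its transcript, 41.0% also occurred in another gene, mainly the pseudogene Clca4c-ps, and Gm16233 covered 334 of its 3004 exon bases on the other strand. Of the stretches of its paralog Clca4b, 24.8% were shared, mainly with Clca4a. Clca4b held 7.06 to 10.6 times the counts of Clca4a in SI and 0.0447 to 0.348 times in COL. Reads per gene were counted with STAR, and the setting it used for shared reads is not given.

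The tissue by sex term passed for 0 of the 10 genes and for 0 of all 14491 genes in edgeR (0.0%), with 2 of the 10 (Cftr and Clca4a) and 761 of all genes at an unadjusted p below 0.05. In DESeq2 it passed for 1 of the 10 genes and for 11 of all genes (0.0759%). For Cftr the log2 difference between SI and COL within mice was -1.72 and -0.80 in the females and 0.00 and 0.15 in the males.

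**Figure D4:**
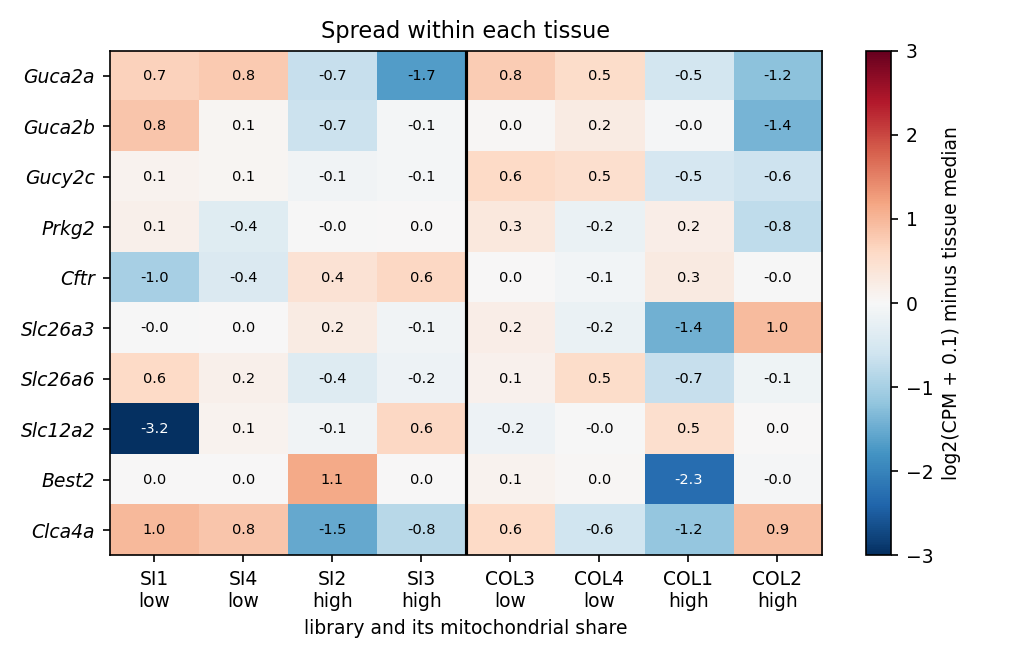
Deviation of each gene from the median of its tissue, as log2(CPM + 0.1), in each library, ordered by tissue and by mitochondrial share (low or high). Guca2a is above its median in the low-share and below it in the high-share libraries of both tissues, Slc12a2 is 3.2 below in SI1, and Best2 is 2.3 below in COL1.

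Libraries of the same tissue differed most in a few of the genes. Guca2a, Guca2b, Gucy2c and Slc26a6 were higher in both low-share libraries than in both high-share libraries, in SI as in COL. Of these, Guca2a differed most, with means of 421 against 118 CPM in SI and 3074 against 1087 CPM in COL. Cftr was lower in both low-share libraries of SI, with means of 44.6 against 104 CPM, and showed no such order in COL. For Guca2b in COL the gap was small, with 38.2 CPM in COL1 (high share) against 40.2 CPM in COL3 (low share). These are descriptions of pairs of libraries. How many of all genes tested show the same order was not determined, so it is not a trait particular to these genes. In SI the low-share pair also had the higher sums of enterocyte markers, an order that Sis, Alpi and Fabp1 did not follow. The part of mitochondrial share, sex or cell composition in these differences was not tested.

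Scaled to the length of the annotated transcript with the longest coding sequence, the order of levels differed between tissues. In SI, Guca2b led with 3687 CPM per kb, above Slc26a6 with 464, Guca2a with 453, Gucy2c with 136, Clca4a with 107, Slc26a3 with 60.2, Prkg2 with 26.6, Cftr with 11.8, Slc12a2 with 6.28 and Best2 with 0.0137. Neighbours in this order overlapped in range except below Guca2b, Slc26a3, Prkg2 and Slc12a2. In COL, Guca2a led with 3502 CPM per kb, above Slc26a3 with 89.5, Gucy2c with 61.2, Guca2b with 50.1, Slc12a2 with 31.8, Cftr with 16.2, Clca4a with 12.4, Best2 with 5.65, Prkg2 with 5.35 and Slc26a6 with 1.07. There, ranges were apart only below Guca2a, Slc12a2 and Prkg2. Each tissue was thus led by a different ligand.

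The remaining genes of the pathway were taken from a list of 68, of which 67 were found, 49 tested and 22 called (against 28.4% of all genes tested), 12 of them higher in SI and 10 in COL. Their median log2 fold change was -0.12. With library size scaling the calls were 6 (7.69% of all genes) and 18 (33.0% of all genes). None of the 9 other guanylyl cyclase genes passed the filter on low counts, so that Gucy2c was the only guanylyl cyclase gene tested among the 10 genes and the list.

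Among the scaffolds of apical transporters and their partners, with Slc9a3 as a target of PRKG2, 7 of 9 genes were called. The share of all genes tested was 28.4%. Pdzk1, which binds CFTR and the SLC26 exchangers, stood at 310 to 721 CPM in SI and at 0 to 1.11 CPM in COL (log2 fold change 10.25, SE 1.14, adjusted p = 7.34e-05, edgeR). Without COL4 its log2 fold change was 12.13. Slc9a3r1 (NHERF1) was higher in SI with 3.53 (SE 0.56) and Pdzd3, which binds guanylyl cyclase C, with 2.62 (SE 0.39). Their relative Slc9a3r2 (NHERF2) was the reverse, at 0.0906 to 0.659 CPM in SI and 4.09 to 10.03 CPM in COL, with -4.23 (SE 0.61, adjusted p = 0.000381, edgeR). Ezr and Ahcyl1 were also higher in SI and Gopc in COL. Slc9a3, the sodium-hydrogen exchanger that this pathway inhibits, did not pass (1.11, SE 0.51, adjusted p = 0.127, edgeR).

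Of the genes that act on cGMP after its synthesis, 2 of 7 were called, near the 28.4% of all genes tested. Pde9a, a cGMP phosphodiesterase, was higher in SI (1.20, SE 0.39, adjusted p = 0.0394, edgeR), but not with library size scaling (adjusted p = 0.270), nor with the mouse as a block (adjusted p = 0.0652), nor without any 1 of SI1, SI2, SI4, COL1, COL3 or COL4 (0.0646 to 0.0973). Abcc4, a cyclic nucleotide exporter, was higher in COL (-2.87, SE 0.83, adjusted p = 0.0233, edgeR) at 5.54 to 9.04 against 0.0453 to 2.54 CPM, and missed the threshold without SI4 (0.0525) or COL1 (0.0657), while without SI3 it was -3.99. Pde5a did not pass (0.60, adjusted p = 0.0687, edgeR), and its direction flipped with library size scaling (-0.13).

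On the basolateral side, 6 of 8 genes were called, against 28.4% of all genes tested. They were 3 in each direction, where 15.5% of all genes were higher in SI and 12.9% in COL. Kcnq1 and Kcne3, subunits of the potassium channel that maintains the driving force for chloride exit, were higher in COL, as was Slc12a2. Kcnq1 stood at 2.08 to 23.4 CPM in SI and 36.0 to 57.8 CPM in COL (-1.64, SE 0.54, adjusted p = 0.0411, edgeR), and Kcne3 at 2.94 to 48.6 against 85.8 to 181 CPM (-2.10, SE 0.63, adjusted p = 0.0280, edgeR). SI1 was the lowest library for both, and without it the adjusted p was 0.00909 for Kcnq1 and 0.00819 for Kcne3. Kcnq1 missed the threshold without any 1 of SI2, SI4, COL1, COL3 or COL4 (0.0570 to 0.104), and Kcne3 without SI4, COL3 or COL4 (0.0538 to 0.0613). The anion exchanger Slc4a2 was higher in COL (-1.42, SE 0.28) and the sodium bicarbonate cotransporter Slc4a4 in SI (1.35, SE 0.24), the latter not with library size scaling (0.58, adjusted p = 0.114, edgeR). Within the libraries of high share, Slc4a2 gave -0.98 and Slc4a4 1.17, and neither passed. Of the 4 kinases that control NKCC1, Wnk4 was higher in COL (-2.36, SE 0.63, adjusted p = 0.0154, edgeR; -3.04 without SI2) and the other 3 did not pass.

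**Figure D5:**
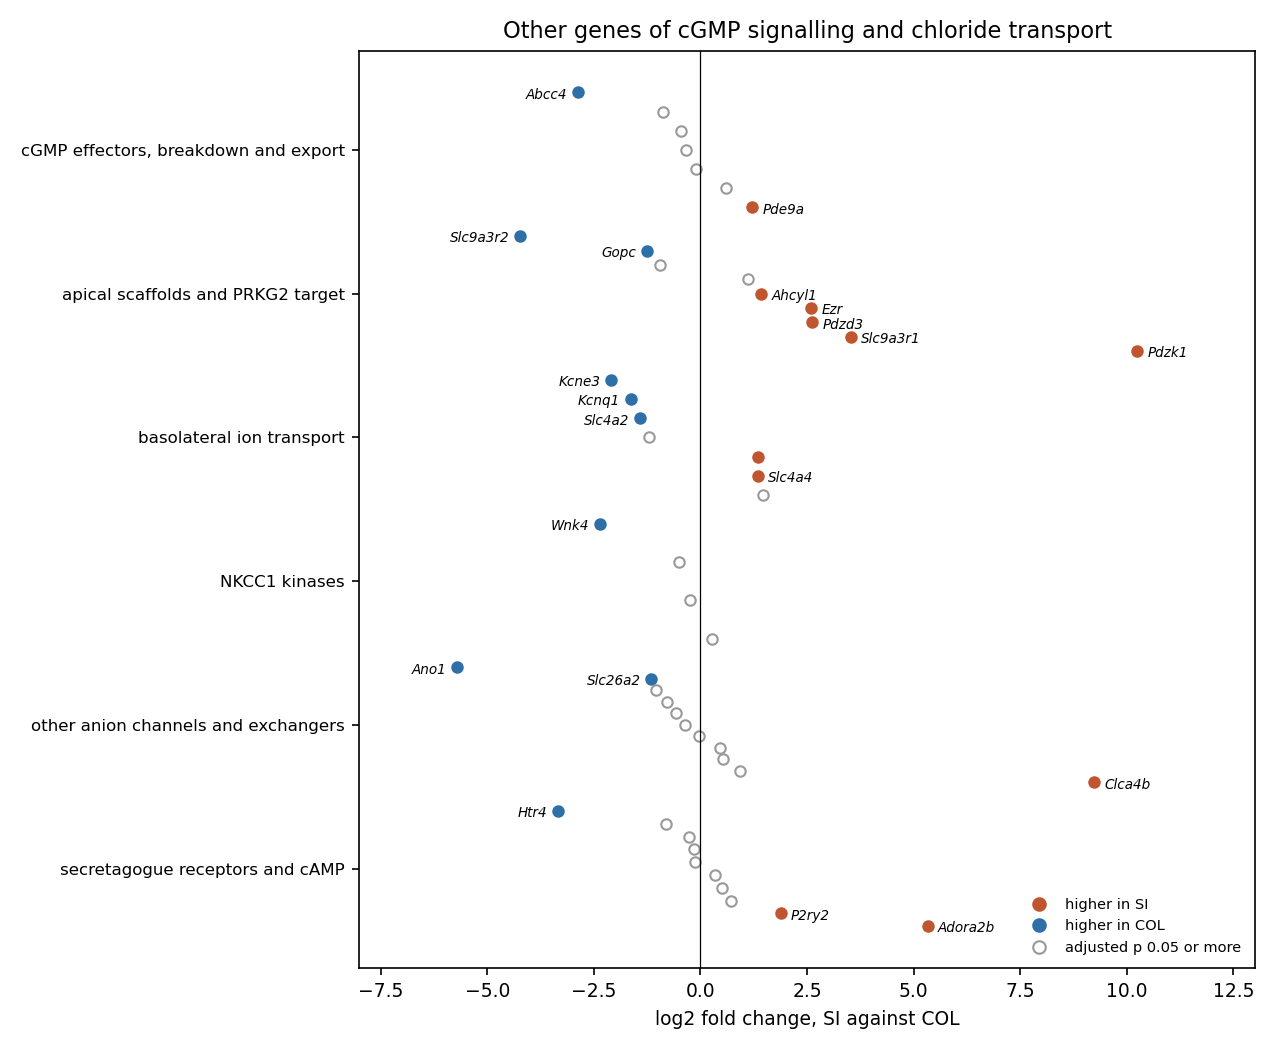
Log2 fold change of SI against COL for 48 of the 49 tested genes of the pathway list, by role, in orange where higher in SI, blue where higher in COL, and open grey where the adjusted p was 0.05 or more. Genes of the scaffold and PRKG2 target group lie mostly to the right, with Pdzk1 at 10.25, and the channel gene Ano1 lies farthest left at -5.72.

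Among other anion channels and exchangers, 3 of 11 were called, near the 28.4% of all genes tested. Ano1, the calcium-activated chloride channel, stood at 0.183 to 2.48 CPM in SI and 27.1 to 68.9 CPM in COL (-5.72, SE 0.72, adjusted p = 0.000155, edgeR; -6.67 without SI3), the same direction as Best2. Clca4b, the paralog of Clca4a, stood at 1015 to 3803 CPM in SI and 2.08 to 7.64 CPM in COL (9.22, SE 0.83, adjusted p = 2.25e-05, edgeR), while Clca1, a goblet cell product of the same family, did not pass (-0.79, adjusted p = 0.272, edgeR). The sulfate transporter Slc26a2 was higher in COL (-1.15, SE 0.35, adjusted p = 0.0304, edgeR), but missed the threshold without any 1 of SI1, SI2, SI3, COL2, COL3 or COL4 (0.0507 to 0.101). Of receptors that raise cAMP or calcium and the cAMP signalling genes Gnas, Adcy6 and Prkaca, 3 of 10 were called, also near that share. All 3 were receptors. Adora2b, an adenosine receptor, stood at 39.4 to 102 CPM in SI and 0.352 to 3.32 CPM in COL (5.33, SE 0.67, adjusted p = 0.000149, edgeR; 5.97 without COL3). The nucleotide receptor P2ry2 was higher in SI (1.88, SE 0.52, adjusted p = 0.0181, edgeR), with overlapping groups and adjusted p of 0.0630 without SI4, 0.0567 without COL1 and 0.0900 with library size scaling. The serotonin receptor Htr4 was higher in COL (-3.35, SE 0.92, adjusted p = 0.0184, edgeR; -3.97 without SI2).

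The genes most like each of the 10 in profile were named by the smallest root mean square distance between log2 CPM profiles centred on their means, over the 8 libraries, which is a description and carries no test. Gucy2c had the closest neighbours, Vps11, Zfyve19 and Wrap53, at 0.072 to 0.11. Slc26a6 lay near Rbp2 and Ms4a10 (0.41 and 0.45), of which Rbp2, a retinol-binding protein, stood at 6458 to 16220 CPM in SI and 10.1 to 50.5 CPM in COL. Slc12a2 lay nearest Ephb4, Nap1l1 and Cd44 (0.31 to 0.36), and all of these were lowest in SI1. Cftr lay nearest 2810004N23Rik, Gtpbp4 and Plch1 (0.16 to 0.18). Slc26a3 lay nearest Card14, Serhl and Ablim1 (0.24 to 0.31), each of which was lowest in COL1 among the COL libraries. Guca2a lay nearest Endod1, Tpsg1 and Ccl6 (0.56 to 0.60), and Guca2b nearest Slc43a2, Fam213a and Fbln1 (0.35 to 0.41). Best2 lay nearest 2610528A11Rik, Saa1 and B3galt5 at 0.83 to 0.86, farther than any of the other 9 genes from its neighbours. Prkg2 lay nearest Gosr2, Tprkb and Sephs2 (0.26 to 0.27), and Clca4a nearest Ido1, Il22ra1 and Plekhg6 (0.51 to 0.57).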

How the data were processed

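RNA was purified from crypts isolated by EDTA chelation. The authors trimmed reads with Trimmomatic 0.36, then aligned them to mm10 and counted them per gene with STAR 2.5.2b. They deposited whole-number counts per Ensembl gene, without normalization. The labels also list mm9, and the annotation release and the use of strand are not given in the sources used here. GENCODE vM21 named 45143 of the 45706 genes. Pde2a was not analysed here.

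Counts were tested with edgeR 4.0.16 (R 4.3.3): quasi-likelihood, TMM, filterByExpr by tissue (about 10 counts in at least 4 libraries), no mouse term, and Benjamini-Hochberg adjustment over all 14491 genes. CPM used TMM-scaled library sizes. Ratios used counts plus 0.5. Alternatives were library size scaling, DESeq2 1.42.0, limma 3.58.1 (voom), the mouse as a block, other filters, subsets or covariates by mitochondrial share (boundary 15%), omission of each library and, after seeing the data, a proliferation covariate. Fits were tested on simulated data.

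The labels give SI and COL libraries the same 4 donor mice. Deviations from tissue means correlated at -0.24, 0.39, -0.08 and 0.33 between them. No pair of libraries of a tissue differed by as little as sampling noise (chi-square per gene 76.1 or more). P-values of the main fit measure the spread between libraries of a tissue, each from a different mouse. The main fit and the permutation test do not use the pairing of SI and COL by mouse.

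Members and lists were chosen with earlier results of these data known. All 10 genes are named. Pathway genes were named per role as up to 4 called genes of largest fold change and the genes paired with a member. Ezr, Ahcyl1 and Gopc are named as remaining calls. Some items are not reported here by name, but remain in the counts.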

Additional observations from a re-analysis of the deposited data

Results flagged for a closer look

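Of 32 groups of 4 values examined (the log2 CPM of each gene and each ratio in each tissue), 4 had a library farther from the others than Dixon's 95% critical value allows, where chance gives about 1 in 20. Best2 in SI2 had a log2(CPM + 0.1) of -2.18, because its 2 counts stood against 0 in the other SI libraries. Best2 in COL1 had a value of 1.66, and its gap to the next library was 0.944 of the range. The log2 ratio of Best2 to Cftr in COL1 was -5.28, which follows from the same low Best2 value. The log2 ratio of Prkg2 to Gucy2c in SI4 was -2.39, below -1.94 to -1.89 in the other SI libraries.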

How the results depend on the processing

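The number of the 10 genes called was 7 to 9 over the 19 alternatives (13.7% to 40.7% of all genes) and 7 to 8 when 1 library was left out. Within the libraries of high mitochondrial share the pathway list gave 10 calls in place of 22 (14.8% of all genes against 28.4%), and leaving out 1 library gave 15 to 22. These fits hold fewer libraries. The interaction gave 1 call among the 10 genes in DESeq2 and 1 without a filter, and 0 in the other 12 alternatives. With the mouse as a block, the exact sign-flip test on the ratios cannot go below p = 0.125, which it gave for the differences of 9.28 (Guca2b to Guca2a), -9.12 (Slc26a3 to Slc26a6), -2.23 (Slc12a2 to Cftr) and -7.52 (Best2 to Cftr). The block changed 1 of 30 calls for single genes, that of Pde9a. With 1 library left out, where p cannot pass the threshold, these differences were 8.83 to 9.61, -9.34 to -8.73, -2.59 to -1.69 and -8.19 to -7.09. Prkg2 to Gucy2c gave 0.92 to 1.38 and Cftr to Slc26a3 -0.63 to 0.27. Cftr to Slc26a3 turned to 0.04 without SI1, 0.27 without COL1 and 0.14 within high share, and Pde5a to -0.13 with library size scaling. The cause was not tested. Within high share Clca4a, Pde9a, Abcc4, Kcnq1, Kcne3, Slc4a2, Slc4a4, Slc26a2 and P2ry2 missed the threshold, and within low share Slc12a2, Kcnq1, Kcne3 and Slc26a2. Depth limits Best2 in SI, where 2 counts were found in all.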
